A study of Mus musculus with 14 samples.

Results

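Chromatin accessibility at 10 xenobiotic and metabolic receptor genes was examined in mouse liver: Nr1i2 (encoding PXR), Nr1i3 (CAR), Ahr (AHR), Ppara (PPARα), Nr1h3 (LXRα), Nr1h4 (FXR), Rxra (RXRα), Nr5a2 (LRH-1), Nr0b2 (SHP) and Thrb (TRβ). An accessible interval belonged to a receptor gene when its midpoint lay inside the gene, or when that gene was the nearest protein-coding gene within 50 kb. By this rule 301 of 88203 intervals in the chow table and 436 of 105801 in the high-fat table were assigned to the 10 genes, out of 15931 and 16279 genes with any interval. The position rule used no measured value, but the 10 genes were chosen with earlier results of these data known. Their shares beside the background are therefore not independent of those results. The authors' intervals, however, each carry a name that begins with KO or WT, and these names went with the direction of the genotype effect: on chow 23.6% of the 44011 KO-named and 77.4% of the 44192 WT-named intervals had a lower LKO level, and on the high-fat diet 26.9% of 52391 and 73.9% of 53410. The labels and table headers do not explain these names. If a WT name marks intervals taken from flox peak calls, a lower LKO level there is favoured by construction, so counts of lower intervals are set beside intervals of the same name.

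The libraries came from ATAC-seq, in which a transposase inserts adapters into open DNA, on nuclei of frozen liver from 14 female mice. Control mice carried floxed Matr3 alleles without Cre ("flox"). Liver-specific knockout mice ("LKO") were littermates with the same floxed alleles plus an Albumin-Cre transgene, which is active in hepatocytes. Matr3 encodes matrin-3, an RNA- and DNA-binding protein of the nuclear matrix. Chow groups held 3 LKO and 3 flox mice, and high-fat groups held 4 of each. Diets began at 7 weeks of age and lasted 16 weeks, the high-fat diet had 60 kcal% fat, and the high-fat mice were fasted for 12 h at the end. Whether chow mice were fasted is not stated in the labels used here.

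Most of these proteins are nuclear receptors: transcription factors that change shape when a small fat-soluble ligand binds, then recruit coactivators or release corepressors at DNA elements built from the core motif AGGTCA. PXR and CAR sense drugs and toxins and switch on detoxifying enzymes, PPARα senses fatty acids and drives their oxidation in fasting, LXRα senses oxysterols, FXR senses bile acids, and TRβ binds thyroid hormone. RXRα is the shared dimer partner of these receptors, LRH-1 binds DNA as a monomer, and SHP lacks a DNA-binding domain and represses other receptors. AHR is the exception by family: it is a basic helix-loop-helix protein that binds dioxin-like compounds and recognises the core GCGTG with its partner ARNT.

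The 4 start regions below are printed because levels at them are given further on. Nr1i3 is shown because its intervals lay on opposite sides of 0 in the 2 diets. Rxra and Ppara are shown because their gene bodies, rather than their starts, held most of the low values. Each sequence is the 250 bases before a RefSeq transcription start of GRCm38.p6 (mm10), 5′ to 3′ on the gene's strand. Capitals mark the motif AGGTCA, printed TGACCT where it lies on the opposite strand, or the AHR core GCGTG, which there reads CACGC.
Nr1i3 start, chr1:171213720-171213969, plus strand: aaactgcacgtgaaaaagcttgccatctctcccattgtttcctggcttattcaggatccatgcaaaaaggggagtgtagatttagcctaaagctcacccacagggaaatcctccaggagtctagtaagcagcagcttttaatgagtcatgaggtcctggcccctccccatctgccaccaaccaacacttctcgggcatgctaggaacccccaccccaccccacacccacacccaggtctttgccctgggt
Rxra upstream start, chr2:27676951-27677200, plus strand: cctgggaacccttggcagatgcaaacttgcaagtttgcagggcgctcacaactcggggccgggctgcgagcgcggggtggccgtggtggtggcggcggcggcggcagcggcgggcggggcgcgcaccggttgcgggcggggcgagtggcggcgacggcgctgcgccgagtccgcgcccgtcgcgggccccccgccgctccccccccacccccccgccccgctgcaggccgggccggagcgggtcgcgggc
Rxra downstream start, chr2:27709042-27709291, plus strand: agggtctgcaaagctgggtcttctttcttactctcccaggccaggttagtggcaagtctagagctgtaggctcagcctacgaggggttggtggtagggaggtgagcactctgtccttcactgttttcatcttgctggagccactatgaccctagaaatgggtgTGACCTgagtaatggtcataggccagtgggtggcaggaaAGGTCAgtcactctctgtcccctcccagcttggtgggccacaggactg
Ppara start, chr15:85735526-85735775, plus strand: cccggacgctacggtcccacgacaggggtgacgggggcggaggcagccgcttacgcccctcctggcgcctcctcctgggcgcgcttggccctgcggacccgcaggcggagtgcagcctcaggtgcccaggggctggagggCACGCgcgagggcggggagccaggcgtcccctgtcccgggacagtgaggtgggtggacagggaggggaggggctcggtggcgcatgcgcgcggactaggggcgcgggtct
The downstream Rxra window held AGGTCA at 2 places and the Ppara window held 1 GCGTG core. Neither motif was found in the Nr1i3 window or the upstream Rxra window, which says only that these exact letters are not there. Among 32851 mouse start regions of the same length, 14.02% held AGGTCA and 28.2% held GCGTG on either strand, so both matches are common. Over all 13 starts listed for 9 of the 10 genes, no window held a direct repeat of the motif with 1 or 4 bases between copies (DR1, DR4), an inverted repeat with 1 base (IR1), or the extended LRH-1 motif TCAAGGTCA. Ahr was not matched in the start table.

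Across the 10 genes, none of 301 chow intervals and 3 of 436 high-fat intervals differed between genotypes at an adjusted p under 0.05 (edgeR, Benjamini-Hochberg over all intervals of the table), a result named "called" below. On chow 57 of the 301 had an unadjusted p under 0.05 (background 6.77%). DESeq2 called 2 of them (background 0.617%), limma-voom 7 (0.768%) and edgeR blocked on replicate number 1 (0.143%), and the receptor intervals so called were all in Rxra. Over all 88203 intervals the block called 126, against 20 without it. The background was 0.0227% of all chow intervals and 0.751% of all high-fat intervals, and the receptor share on the high-fat diet, 0.688%, was near it. The called intervals were 1 higher interval in Ahr and 2 lower intervals in Ppara, against backgrounds of 0.448% called higher and 0.303% called lower. Fold changes here are log2 of LKO over flox, levels are CPM (counts scaled to the library size) after TMM scaling, and errors are SD over mice or, for fold changes, the standard error (SE) of the fit.

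Below that threshold the pooled intervals leaned lower in LKO livers in both diets, on chow largely through Rxra. On chow 205 of 301 lay below 0, with a median of -0.12 against -0.0032 over all intervals, and on the high-fat diet 316 of 436, with a median of -0.13 against -0.0039. An unadjusted p under 0.05 with a lower LKO level occurred in 53 chow intervals (17.6%, background 3.77%) and in 65 high-fat intervals (14.9%, background 4.8%). In 64 chow intervals (21.3%, background 6.04%) and 24 high-fat intervals (5.50%, background 2.5%) every LKO library lay below every flox library. Of the 205 chow intervals below 0, Rxra held 116, and of the 316 high-fat ones Rxra held 110 and Ppara 90. The Rxra chow median was -0.37, and chow medians of the other genes ran from -0.13 (Nr1i2) to 0.50 (Nr1i3). With counts summed per gene, the chow median over the 10 genes was 0.010, against -0.0051 over all genes. The counts by unadjusted p and by non-overlap came mostly from 1 gene in each diet. Rxra gave 49 of the 53 and 56 of the 64 on chow, and Ppara gave 38 of the 65 and 13 of the 24 on the high-fat diet. Neighbouring intervals of 1 locus are not independent of each other. The receptor genes also held more WT-named intervals than the tables as a whole, 198 of 301 on chow and 283 of 436 on the high-fat diet. Of these WT-named receptor intervals 51 (25.8%) of the chow set and 59 (20.8%) of the high-fat set were lower with an unadjusted p under 0.05, beside 7.44% and 9.05% of all WT-named intervals. Of the KO-named receptor intervals it was 2 of 103 and 6 of 153, beside 0.0727% and 0.473%. Here too most came from 1 gene in each diet. Rxra held 47 of the 51 WT-named and 2 of the 2 KO-named on chow. Ppara held 34 of the 59 and 4 of the 6 on the high-fat diet. These shares therefore do not describe the 10 genes as a set. How far the naming sets these counts was not tested further.

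**Figure D1:**
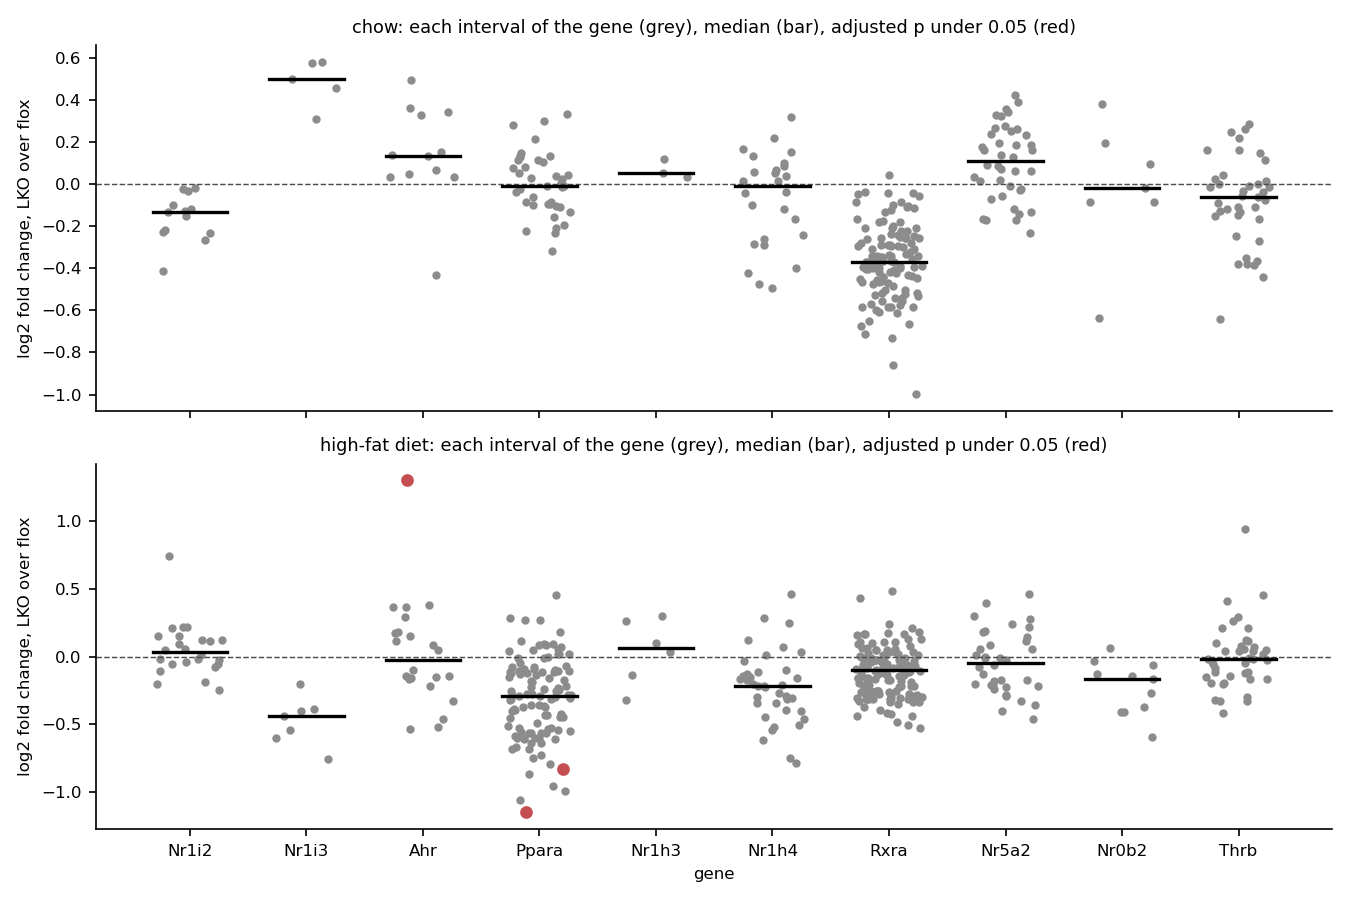
Genotype effect of every interval of the 10 genes (vertical axis, log2 fold change of LKO over flox) on chow (top) and on the high-fat diet (bottom), with the median of each gene as a bar and called intervals in red. The Rxra points on chow lie almost all below 0, Nr1i3 lies above 0 on chow and below 0 on the high-fat diet, and the 3 called points belong to Ahr and Ppara.

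When counts were summed over the intervals of each gene, none of the 10 gene loci was called in either diet by edgeR or DESeq2, while 2 chow loci and 3 high-fat loci had an unadjusted p under 0.05. The background was 0% of 15931 gene loci on chow (1045 had an unadjusted p under 0.05, DESeq2 called 38, and the block called 9, none of them a receptor gene) and 0.344% of 16279 on the high-fat diet. Per interval, all of equal width, flox levels on chow ran from 19.2 ± 4.86 CPM in Nr0b2 and 18.8 ± 1.82 CPM in Nr1h3, through 14.2 ± 2.11 in Rxra, 14.02 ± 1.75 in Nr1i2, 12.1 ± 1.74 in Ppara, 11.3 ± 1.44 in Ahr, 11.1 ± 1.31 in Nr5a2, 10.6 ± 1.24 in Nr1h4 and 10.1 ± 0.108 in Thrb, to 9.87 ± 3.32 in Nr1i3 (SD, n = 3). Going down this order, only the steps from Nr1h3 to Rxra and from Nr1i2 to Ppara were larger than the SD of both genes. Among high-fat flox livers Nr0b2 was again at the top with 15.8 ± 2.75 CPM per interval and Ahr at the bottom with 7.995 ± 0.440 (SD, n = 4). The tables hold different interval sets, so levels were not compared across diets.

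**Figure D2:**
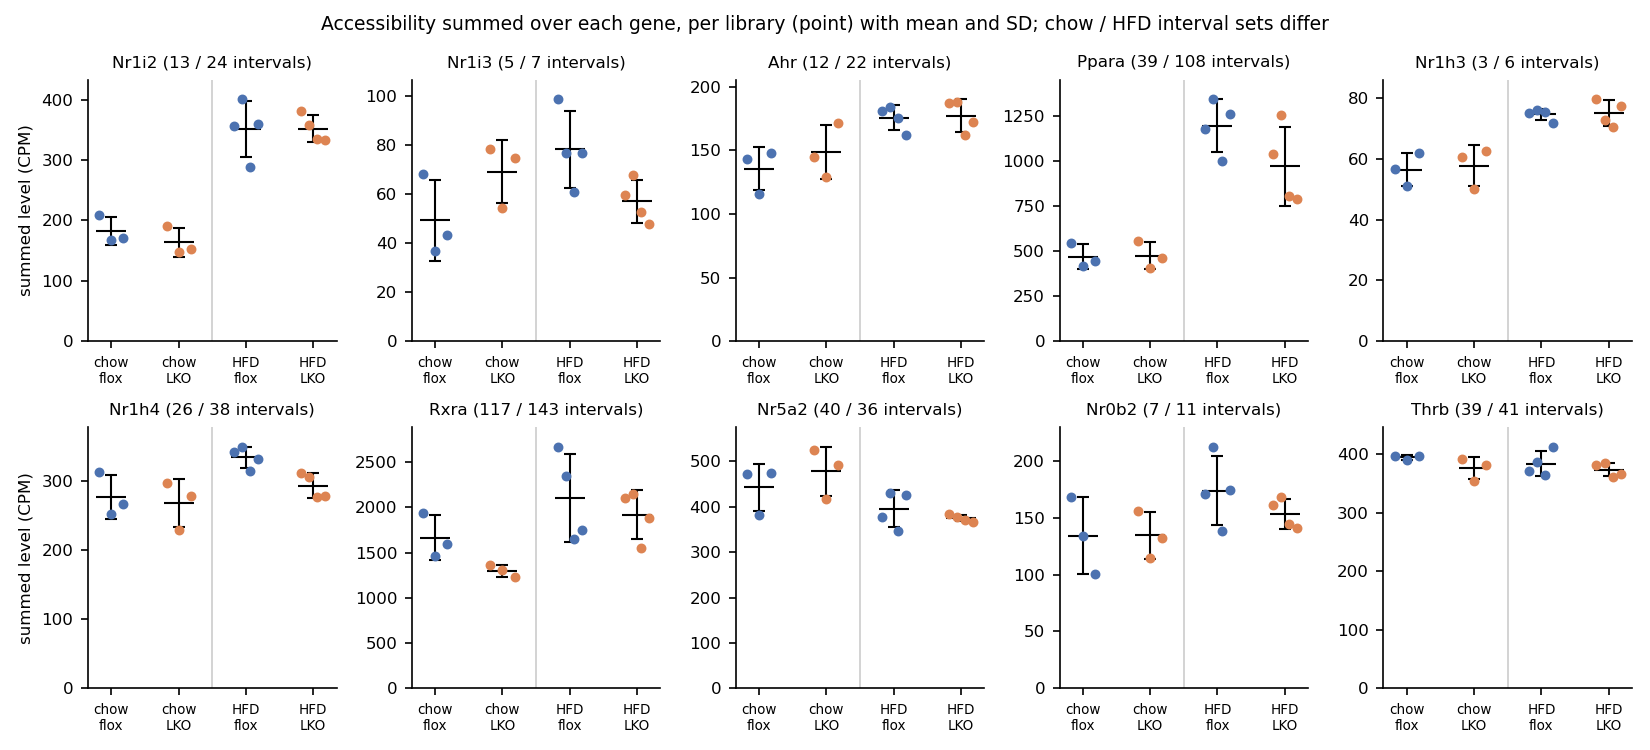
Summed accessibility of each gene (vertical axis, CPM) in every library, as points, with the group mean and SD, for flox (blue) and LKO (orange) livers of each diet. The LKO points lie below all flox points for Rxra on chow and for Nr1h4 on the high-fat diet, and overlap them in the other panels. The share of all gene loci placed so is not given here.

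Rxra, the gene of the shared partner, had the most intervals of the 10 genes, 117 on chow and 143 with high-fat feeding, along 86.9 kb of chromosome 2. Its summed chow level was 1938, 1458 and 1600 CPM in flox livers 1, 2 and 3 and 1362, 1302 and 1230 CPM in LKO livers 1, 2 and 3. All LKO libraries were lower than all flox libraries. How many of all chow gene loci were placed so is not given here. The locus log2 fold change was -0.36 (SE 0.13) and did not pass the test (edgeR adjusted p = 0.718), nor with the replicate number as a block (adjusted p = 0.116).

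Of the 117 chow intervals of Rxra, 116 lay below 0, with a median of -0.37. WT-named were 110 of them, of which 109 lay below 0 (99.1%, beside 77.4% of all WT-named chow intervals), with a median of -0.37 beside -0.15. The other 7 were KO-named and all lay below 0 as well, with a median of -0.18 beside 0.13 over all KO-named intervals. The 102 intervals inside the gene were all lower, with a median of -0.38, and the 15 outside had a median of -0.25. Counted from the upstream start, medians were -0.08 in the 8 intervals before it, -0.43 in the 26 of the first 20 kb, -0.45 in the 24 from 20 to 40 kb, -0.37 in the 26 from 40 to 60 kb and -0.25 in the 33 beyond. The low values thus began near the upstream start and had their lowest medians in the first 40 kb of the gene. Of these 117 intervals 49 had an unadjusted p under 0.05. Without both chow libraries numbered 2, which held 15.5 and 17.1 M counts against 31.3 to 35.0 M in the others, all 117 lay below 0, with a median of -0.42. Without flox library 1, 104 of 117 lay below 0, the median was -0.25 and 14 had an unadjusted p under 0.05.

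The Rxra interval with the smallest p on chow, chr2:27684815-27685315, lies inside the gene 7.86 kb after the upstream start. It held 14.3, 10.7 and 11.8 CPM in flox livers and 7.11, 5.46 and 5.83 CPM in LKO livers. The groups did not overlap, and the log2 fold change was -0.999 (SE 0.185). Its edgeR adjusted p was 0.160. It was called with the replicate number as a block (adjusted p = 0.0474), by DESeq2 (0.00153), by limma-voom (0.0232) and by edgeR without flox library 2 (0.0270). No other edgeR fit that left out 1 library called it (highest adjusted p = 0.561). Nor was it called without both chow libraries numbered 2. The interval at the same place was also the one with the smallest Rxra p on the high-fat diet: chr2:27684811-27685311 held 17.8, 14.5, 10.7 and 16.4 CPM in flox and 13.6, 10.5, 10.4 and 7.83 CPM in LKO livers, with overlapping groups, a log2 fold change of -0.48 (SE 0.18) and an adjusted p of 0.290.

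At the Rxra upstream start printed above, the chow interval chr2:27676743-27677243 held 33.8 ± 3.21 CPM in flox and 28.7 ± 2.52 CPM in LKO livers (SD, n = 3), and the log2 fold change was -0.24 (SE 0.13, edgeR adjusted p = 0.760). The high-fat interval there held 35.1 ± 4.46 and 33.8 ± 3.02 CPM (SD, n = 4). At the downstream start, the chow interval chr2:27708939-27709439 held 10.1 ± 1.96 CPM in flox and 7.49 ± 1.79 CPM in LKO livers (SD, n = 3), and the log2 fold change was -0.45 (SE 0.22, adjusted p = 0.749), and the high-fat interval held 9.31 ± 3.45 and 9.55 ± 1.64 CPM (SD, n = 4). The most accessible Rxra interval, near 49.2 kb after the downstream start, held 42.4 ± 8.78 CPM in flox and 34.8 ± 3.89 CPM in LKO livers on chow (SD, n = 3) and 43.4 ± 11.05 and 41.2 ± 8.57 CPM on the high-fat diet (SD, n = 4). At all 3 places the groups overlapped in both diets.

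In the high-fat libraries the summed Rxra level was 2671, 2347, 1652 and 1748 CPM in flox livers 1 to 4 and 2104, 2149, 1546 and 1884 CPM in LKO livers 1 to 4. The groups overlapped, with a log2 fold change of -0.13 (SE 0.14, edgeR adjusted p = 0.832), and 110 of 143 intervals lay below 0, with a median of -0.10. The first 20 kb after the upstream start had the lowest median, -0.28 over 27 intervals, all of them below 0. Without flox library 1 the median over the 143 intervals was 0.05. The flanking genes were not called: on chow Wdr5, 140 kb upstream, had a locus log2 fold change of -0.12 (SE 0.12) and Col5a1, 123 kb downstream, -0.37 (SE 0.34) on 2 intervals. Over the 6 chow libraries the gene loci whose summed log2 levels were most like those of Rxra were Loxl2 (Pearson r = 0.981), Eps8l2 (0.978) and Arl10 (0.978), given as a description of 6 libraries, 3 of each genotype, that differ in depth.

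Liver is a mixture of cells, and fewer cells of a type cannot be told apart from less open chromatin per cell in these bulk libraries. Of 8 hepatocyte markers (such as Alb, Ttr and Apoa1), all had intervals, and 7 of 8 lay lower in chow LKO livers with no locus called. Of their 329 single chow intervals 1 was called higher (0.304%) and 0 lower. Over all 88203 chow intervals 1 was called higher and 19 lower. Their summed level was 5154 to 6763 CPM in chow flox and 4792 to 5769 CPM in chow LKO livers, with a median log2 fold change of -0.31. With high-fat feeding 5 of 8 lay lower, the Ttr locus was called lower, 34 of 365 single intervals were called lower (9.32%, background 0.303%) and 1 higher, the median was -0.29, and the sums were 3390 to 6094 and 3308 to 4580 CPM. Kupffer cell markers, the resident macrophages, had intervals for 5 of 8 genes on chow (not for C1qa, Timd4 and Vsig4), all 5 lower, with sums of 73.3 to 107 CPM in flox and 60.5 to 92.4 CPM in LKO livers. Under high-fat feeding 6 of 7 lay higher, with sums of 104 to 152 and 133 to 151 CPM. None of these macrophage genes was called. Lower on chow also lay 6 of 8 endothelial, 6 of 7 stellate, 3 of 4 biliary, 2 of 4 lymphocyte and 5 of 5 neutrophil markers. On the high-fat diet it was 6 of 8, 2 of 6, 2 of 4, 2 of 5 and 2 of 5, and none of them was called. All marker lists were chosen with earlier results of these data known. The part of such shifts in the receptor values was not tested.

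Ppara, the gene of the fasting-activated fatty acid receptor, spans 71.9 kb of chromosome 15 and held 39 intervals on chow and 108 with high-fat feeding. The high-fat interval chr15:85750025-85750525, inside the gene and 14.5 kb after the start, held 7.30, 8.78, 8.29 and 13.4 CPM in flox livers 1 to 4 and 4.40, 6.62, 2.48 and 3.28 CPM in LKO livers 1 to 4. Every LKO library was below every flox library. The interval fell by 1.15 on the log2 scale (SE 0.25, edgeR adjusted p = 0.0186). The call was lost without LKO library 3 or 4 or without flox library 4 (highest adjusted p = 0.162). It held in DESeq2, limma-voom, library-size scaling and a minimum of 50 counts (adjusted p from 0.00962 to 0.0330). An edgeR block on replicate number gave 0.00483, but these numbers were not taken to pair the high-fat libraries.

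A second Ppara interval, chr15:85740551-85741051, 5.03 kb after the start, held 8.09, 8.58, 8.80 and 9.22 CPM in flox and 4.83, 5.52, 5.61 and 3.54 CPM in LKO livers. These groups were well apart and each was tight. The interval fell by 0.83 (SE 0.21) and passed the threshold narrowly (edgeR adjusted p = 0.0496). It was lost when any single library was left out (adjusted p from 0.0622 to 0.227) and with library-size scaling, a minimum of 50 counts, or limma-voom (highest adjusted p 0.0869).

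**Figure D3:**
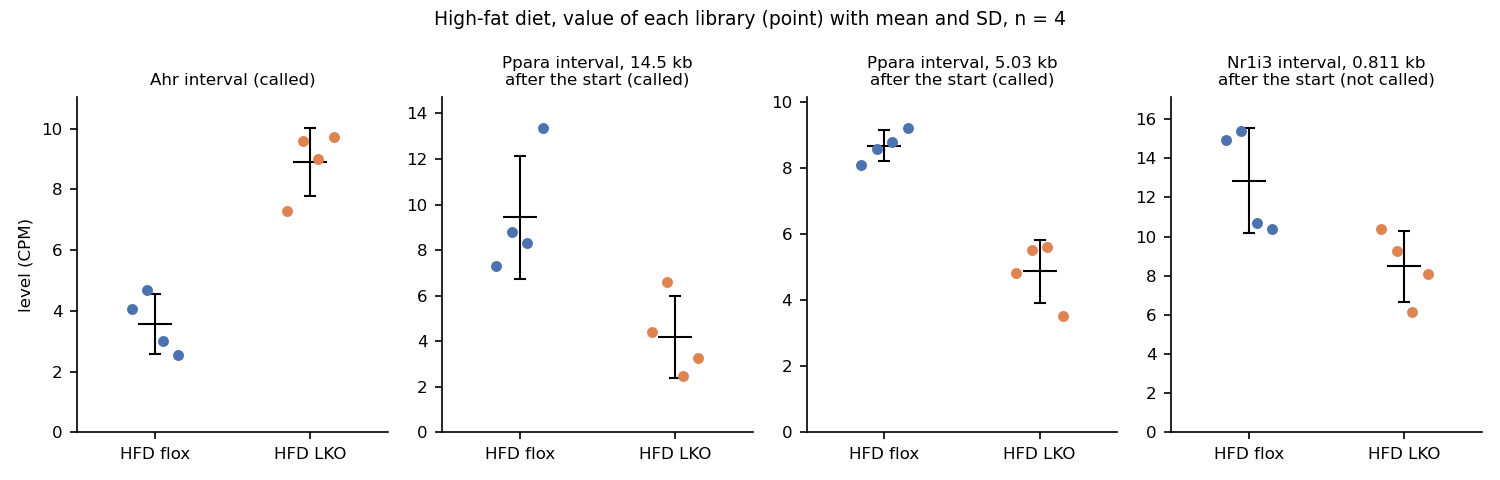
Level of the 3 called intervals and of the Nr1i3 interval with the smallest p (vertical axis, CPM) in each high-fat library, as points, with the group mean and SD (n = 4). The groups do not overlap in the Ahr panel or in either Ppara panel, and they overlap narrowly in the Nr1i3 panel.

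The rest of the Ppara locus lay low in the same stretch on the high-fat diet. In the first 20 kb after the start all 20 intervals were below 0 with a median of -0.58, and 17 had an unadjusted p under 0.05. From 20 to 40 kb all 22 were below 0 with a median of -0.53, and from 40 to 60 kb the median was -0.11 over 23 intervals. The 30 intervals before the start had a median of -0.13. The low values thus lay mainly between the start and 40 kb after it. At the start itself the genotypes did not differ beyond the spread: chr15:85735389-85735889, the most accessible Ppara interval, held 36.8 ± 8.73 CPM in flox and 37.4 ± 3.26 CPM in LKO livers (SD, n = 4), and the log2 fold change was 0.02 (SE 0.13).

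Over the whole Ppara locus the high-fat sums were 1178, 1345, 1001 and 1265 CPM in flox livers 1 to 4 and 1041, 1255, 806 and 788 CPM in LKO livers 1 to 4. The 2 lowest were LKO libraries 3 and 4, and LKO libraries 1 and 2 lay within the flox range. The locus log2 fold change was -0.30 (SE 0.13, edgeR adjusted p = 0.456), with 90 of 108 intervals below 0. WT-named were 72 of these, with 65 below 0 (90.3%, beside 73.9% of all WT-named high-fat intervals), and KO-named 36, with 25 below 0 (69.4%, beside 26.9%). Without LKO library 3 or 4 the interval median moved from -0.29 to -0.22 or -0.20, and neither Ppara interval was called. Without LKO library 1 and flox library 3 together it was -0.40, with 98 of 108 below 0 and 8 called.

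On chow no such stretch was seen in Ppara. The median over 39 intervals was -0.0083, 20 lay below 0, none had an unadjusted p under 0.05, and the sums were 547, 418 and 445 CPM in flox and 556, 407 and 464 CPM in LKO livers. The start interval, chr15:85735363-85735863, had the highest level and the smallest p, with 32.6 ± 4.50 CPM in flox and 39.6 ± 7.59 CPM in LKO livers (SD, n = 3), and the log2 fold change was 0.28 (SE 0.16, edgeR adjusted p = 0.766). From 20 to 40 kb after the start chow had 4 intervals against 22 on the high-fat diet, so part of the high-fat stretch was thinly covered on chow. The next gene, Cdpf1, begins 0.121 kb from the Ppara bound and had a high-fat locus log2 fold change of -0.04 (SE 0.08).

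**Figure D4:**
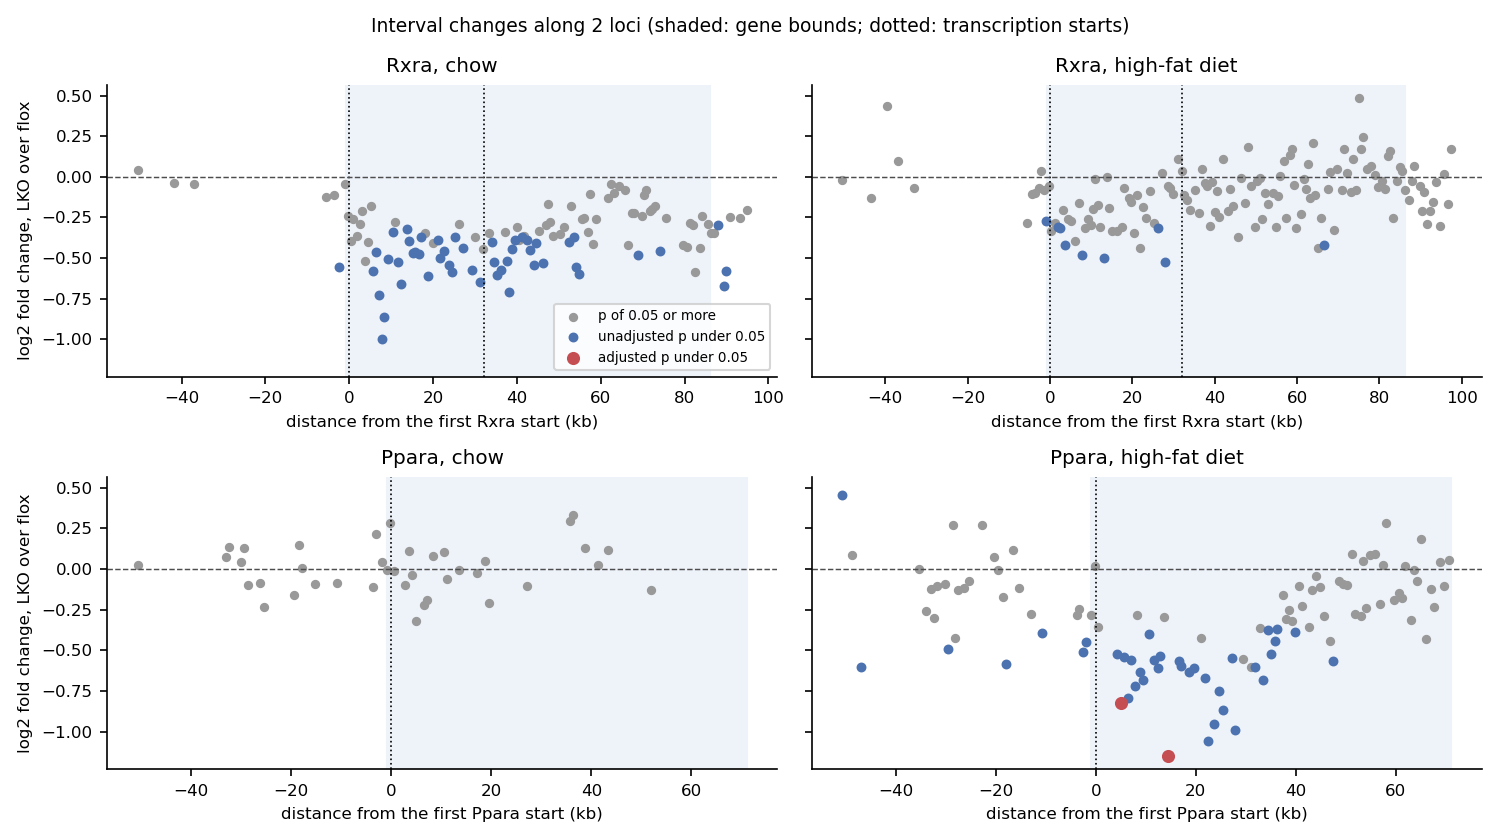
Genotype effect of each interval (vertical axis, log2 fold change of LKO over flox) against its distance from the upstream start in kb, for Rxra (top) and Ppara (bottom) on chow (left) and on the high-fat diet (right). On chow the values are low along Rxra and near 0 along Ppara, and on the high-fat diet the Ppara values are low over the first 40 kb, where both called intervals (red) lie.

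The fixed list of 22 PPARα targets, which includes genes of peroxisomal and mitochondrial fatty acid oxidation, was all covered in both diets. No target locus was called in either diet, and 11 lay higher and 11 lower in each. Of their 366 high-fat intervals 2 were called lower (0.546%, background 0.303%). The list medians were -0.00081 on chow and 0.0040 with high-fat feeding, against -0.0051 and -0.0011 over all gene loci. The smallest p belonged to Cd36, the fatty acid transporter, on chow (0.31, SE 0.10, edgeR adjusted p = 0.718) and to Acaa1b, a peroxisomal thiolase, on the high-fat diet (-0.44, SE 0.12, adjusted p = 0.154).

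Nr1i3 encodes CAR, which drives Cyp2b genes in response to phenobarbital-like compounds. The 4.91 kb gene on chromosome 1 held 5 chow and 7 high-fat intervals. On chow all 5, each KO-named, lay higher in LKO livers, with a median log2 fold change of 0.50, and the sums were 68.2, 36.7 and 43.2 CPM in flox and 78.4, 54.4 and 74.8 CPM in LKO livers. The groups overlapped through flox library 1. The locus log2 fold change was 0.49 (SE 0.22, edgeR adjusted p = 0.718, or 0.0747 with the replicate block).

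All 7 high-fat Nr1i3 intervals, of which 6 were WT-named, lay lower in LKO livers, with a median of -0.44. The sums were 98.8, 76.9, 60.8 and 76.7 CPM in flox livers 1 to 4 and 59.6, 68.0, 52.7 and 48.0 CPM in LKO livers 1 to 4. Only flox library 3 reached into the LKO range. The locus log2 fold change was -0.45 (SE 0.12) and the edgeR adjusted p was 0.147, the lowest of the 10 genes. Without flox library 3 it was -0.56 (adjusted p = 0.0155), and without that library and LKO library 1 together -0.58 (0.0164). In the other leave-one-out fits the adjusted p ran from 0.101 to 0.431.

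At the Nr1i3 start printed above, the high-fat interval chr1:171213713-171214213 held 29.1, 19.0, 16.0 and 19.9 CPM in flox and 18.6, 15.6, 16.6 and 13.6 CPM in LKO livers. The log2 fold change was -0.38 (SE 0.16, edgeR adjusted p = 0.364), and it was the most accessible of the 7. The matching chow interval, chr1:171213712-171214212, held 14.2 ± 4.36 CPM in flox and 21.3 ± 5.99 CPM in LKO livers (SD, n = 3), and the log2 fold change was 0.58 (SE 0.25, adjusted p = 0.731), and was also the one with the smallest p. The smallest p on the high-fat diet was at chr1:171214531-171215031, 0.811 kb after the start, with 14.9, 15.4, 10.7 and 10.4 CPM in flox and 10.4, 9.27, 6.14 and 8.08 CPM in LKO livers, a log2 fold change of -0.60 (SE 0.19, adjusted p = 0.170).

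Genes on both flanks of Nr1i3 had values of the same sign as Nr1i3 in each diet. Tomm40l, which overlaps the end of the gene and encodes a mitochondrial import channel paralogue, was called on the high-fat diet with a locus log2 fold change of -0.74 (SE 0.14, edgeR adjusted p = 0.0247) on 5 intervals of its own, and had 0.24 (SE 0.28) on chow. Pcp4l1, 17.7 kb away, had -0.26 (SE 0.11) on the high-fat diet and 0.45 (SE 0.16) on chow, neither called. Of the 7 high-fat Nr1i3 intervals, 2 also lie inside Tomm40l, so their reads cannot be given to 1 gene. Over the 8 high-fat libraries the loci most like Nr1i3 were Ugt1a6b (Pearson r = 0.967), Cyp2c38 (0.964) and Lancl1 (0.964), as a description of 4 libraries of each genotype.

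Nr1i2, the gene of the drug receptor PXR on chromosome 16, held 13 chow and 24 high-fat intervals. On chow all 13 lay lower in LKO livers, with a median of -0.13, but the sums overlapped, at 182 ± 22.7 CPM in flox and 164 ± 23.6 CPM in LKO livers (SD, n = 3), and the locus log2 fold change was -0.15 (SE 0.13, edgeR adjusted p = 0.736). Without flox library 1, 8 of the 13 lay lower, with a median of -0.03. In high-fat livers 11 of 24 lay lower and the sums were 351 ± 46.5 and 352 ± 22.9 CPM (SD, n = 4).

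No single Nr1i2 interval was called. The most accessible, 6.93 kb after the start, held 30.8 ± 3.45 CPM in flox and 30.1 ± 6.12 CPM in LKO livers on chow (SD, n = 3) and 38.6 ± 6.15 and 38.2 ± 4.92 CPM on the high-fat diet (SD, n = 4). The start interval, chr16:38294566-38295066, held 16.4 ± 0.893 and 15.1 ± 2.89 CPM on chow (SD, n = 3) and 23.7 ± 1.83 and 23.5 ± 1.55 CPM on the high-fat diet (SD, n = 4). The smallest p on chow was at chr16:38285855-38286355 (-0.41, SE 0.16, edgeR adjusted p = 0.700) and on the high-fat diet at chr16:38248618-38249118 (0.75, SE 0.29, adjusted p = 0.322).

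PXR and CAR share targets, and 21 of the 24 in the list had intervals in each diet. On chow 12 lay higher and 9 lower, none was called, the median was 0.13, and the smallest p belonged to Cyp2b13, with a log2 fold change of 0.63 (SE 0.14, edgeR adjusted p = 0.718). On the high-fat diet 3 lay higher and 18 lower, with a median of -0.31 against -0.0011 over all gene loci, and 1 was called. That gene was again Cyp2b13, in the opposite direction to its chow value. It encodes a cytochrome P450 of the Cyp2b family and held 465 ± 113 CPM in flox and 229 ± 66.8 CPM in LKO livers (SD, n = 4) over 50 intervals, a locus log2 fold change of -1.02 (SE 0.18, edgeR adjusted p = 0.0156). Cyp2b13 has close paralogues beside it, so reads may be split between copies. At the level of single intervals 35 of 426 in the list were called lower (8.22%, background 0.303%) and none higher. Of hepatocyte marker intervals 9.32% were called lower. The list was chosen with earlier results of these data known, so its share is not independent of them.

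Ahr, the dioxin receptor gene on chromosome 12, held 12 chow and 22 high-fat intervals. The interval called on the high-fat diet, chr12:35506323-35506823, lies inside the gene, 8.59 kb from its lower and 28.4 kb from its upper coordinate bound. It held 4.05, 4.68, 3.02 and 2.53 CPM in flox livers 1 to 4 and 7.30, 9.60, 9.01 and 9.72 CPM in LKO livers 1 to 4. Every LKO library was above every flox library. The interval rose by 1.30 on the log2 scale (SE 0.23, edgeR adjusted p = 0.00296). It stayed called when any single library was left out (adjusted p from 0.00227 to 0.0235) and under every other setting tried (0.00023 to 0.00744). The interval is KO-named, and these refits of the same interval do not test what the name sets.

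The intervals around it did not pass the test. The 4 other Ahr intervals within 10 kb lay between 0.08 and 0.37, the nearest of them 1.94 kb away. Over the locus the sums were 176 ± 9.69 CPM in flox and 177 ± 12.8 CPM in LKO livers (SD, n = 4), and the log2 fold change was 0.01 (SE 0.07). No chow interval of Ahr lay at this place. On chow 11 of 12 intervals lay higher in LKO livers with a median of 0.14, and the sums were 136 ± 17.3 and 149 ± 21.4 CPM (SD, n = 3), a difference within the spread (edgeR adjusted p = 0.765).

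The most accessible Ahr interval lay at the upper bound of the gene. On chow chr12:35534798-35535298 held 33.8 ± 3.92 CPM in flox and 37.2 ± 7.79 CPM in LKO livers (SD, n = 3), and on the high-fat diet chr12:35534801-35535301 held 29.7 ± 0.645 and 32.1 ± 2.65 CPM (SD, n = 4). The smallest chow p was at chr12:35578798-35579298, outside the gene, with -0.43 (SE 0.16, edgeR adjusted p = 0.669). Of 10 AHR partners and targets, all with intervals, none was called: on chow 7 lay higher with a median of 0.09, and on the high-fat diet 8 lay lower with a median of -0.09. Cyp1a2, the constitutive AHR target of liver, had the smallest p on the high-fat diet (-0.22, SE 0.12, adjusted p = 0.581).

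Nr1h4, Nr0b2 and Nr5a2 form the bile acid circuit, in which FXR induces SHP and SHP restrains LRH-1 at Cyp7a1, whose enzyme sets the rate of bile acid synthesis. Nr1h4 held 26 chow and 38 high-fat intervals on chromosome 10. Its high-fat sums were 342, 349, 314 and 332 CPM in flox livers 1 to 4 and 311, 305, 277 and 279 CPM in LKO livers 1 to 4, with every LKO library below every flox library. How many of all high-fat gene loci were placed so is not given here. The Nr1h4 shift was small, a locus log2 fold change of -0.19 (SE 0.08), and did not pass the test (edgeR adjusted p = 0.390). Of its 38 intervals 31 lay below 0. On chow 13 of 26 lay below 0 and the locus value was -0.05 (SE 0.13).

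At the Nr1h4 start the high-fat level was 15.4 ± 1.82 CPM in flox and 15.02 ± 1.74 CPM in LKO livers (SD, n = 4), and the chow level 15.2 ± 1.73 and 15.8 ± 3.02 CPM (SD, n = 3). The most accessible interval, near the far end of the gene 47.6 kb after the start, held 35.1 ± 4.29 and 31.3 ± 4.64 CPM on the high-fat diet (SD, n = 4) and 27.4 ± 3.37 and 27.7 ± 6.04 CPM on chow (SD, n = 3). The smallest p on the high-fat diet was at chr10:89493758-89494258 (-0.75, SE 0.25, edgeR adjusted p = 0.212) and on chow at chr10:89501837-89502337 (-0.49, SE 0.20, adjusted p = 0.700). In both of these the groups did not overlap.

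Nr0b2, the SHP gene, held 7 chow and 11 high-fat intervals on chromosome 4, mostly outside its 3.31 kb body. Its sums were 134 ± 34.0 CPM in flox and 134 ± 20.8 CPM in LKO livers on chow (SD, n = 3), and 174 ± 30.2 and 153 ± 13.1 CPM on the high-fat diet (SD, n = 4), where 10 of 11 intervals lay lower (locus log2 fold change -0.18, SE 0.10, edgeR adjusted p = 0.602). The most accessible intervals lay about 4 kb after the start: chr4:133557086-133557586 held 49.1 ± 13.6 and 46.2 ± 6.35 CPM on chow (SD, n = 3), and chr4:133557336-133557836 held 38.7 ± 5.26 and 35.2 ± 1.56 CPM on the high-fat diet (SD, n = 4). The smallest p on chow was 0.349 kb before the start (0.38, SE 0.21, adjusted p = 0.763), which was also the interval nearest to it. On the high-fat diet the smallest p was at chr4:133557878-133558378 (-0.59, SE 0.22, adjusted p = 0.280), and the start interval held 13.9 ± 1.87 and 14.6 ± 1.56 CPM (SD, n = 4).

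Nr5a2, the LRH-1 gene on chromosome 1, held 40 chow and 36 high-fat intervals. On chow 28 of 40 lay higher in LKO livers, with sums of 443 ± 52.5 CPM in flox and 478 ± 54.5 CPM in LKO livers (SD, n = 3). In high-fat livers 21 of 36 lay lower, with sums of 396 ± 40.9 and 375 ± 7.65 CPM (SD, n = 4). Neither difference was called (edgeR adjusted p = 0.792 and 0.834). The chow interval at the outer start, chr1:136960259-136960759, held 16.4 ± 2.64 and 21.9 ± 6.63 CPM (0.42, SE 0.22, adjusted p = 0.755), and the nearest high-fat interval held 17.9 ± 3.95 and 17.1 ± 1.52 CPM. The most accessible chow interval, 6.75 kb before the start, held 21.1 ± 4.63 and 27.0 ± 5.76 CPM, and the most accessible on the high-fat diet 19.4 ± 3.79 and 19.6 ± 1.23 CPM. The smallest p was at chr1:137010158-137010658 on chow (0.32, SE 0.14, adjusted p = 0.731) and at chr1:136915383-136915883 on the high-fat diet (0.47, SE 0.18, adjusted p = 0.304).

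Nr1h3, the LXRα gene on chromosome 2, held 3 chow and 6 high-fat intervals, all inside the gene. Its sums were 56.5 ± 5.47 CPM in flox and 57.8 ± 6.66 CPM in LKO livers on chow (SD, n = 3) and 74.6 ± 1.95 and 75.1 ± 4.18 CPM on the high-fat diet (SD, n = 4). The groups overlapped in both diets. At the start, which was also the most accessible place, the levels were 25.1 ± 1.65 and 25.98 ± 3.96 CPM on chow (SD, n = 3) and 29.8 ± 0.674 and 30.5 ± 3.75 CPM on the high-fat diet (SD, n = 4). The smallest p was 1.09 kb after the start on chow (0.12, SE 0.20, edgeR adjusted p = 0.895) and at chr2:91202124-91202624 on the high-fat diet (-0.32, SE 0.18, adjusted p = 0.582).

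The target lists of these sterol and bile acid receptors were covered for 12 of 12 LXR, 12 of 13 FXR and SHP and 8 of 8 LRH-1 targets, and some genes stand in more than 1 list. No target was called on chow. In high-fat livers 1 LXR target locus was called: Fasn, fatty acid synthase, with 184 ± 32.3 CPM in flox and 121 ± 16.3 CPM in LKO livers (SD, n = 4). Its log2 fold change was -0.60 (SE 0.11, edgeR adjusted p = 0.0248). Cyp7a1 had -0.41 (SE 0.09) on the high-fat diet with an adjusted p of 0.0624, and -0.39 (SE 0.15, adjusted p = 0.718) on chow. Of the FXR and SHP list 10 of 12 lay lower on chow (median -0.17) and 8 of 12 on the high-fat diet (median -0.06). The LXR medians were -0.09 and -0.03, and the LRH-1 medians 0.12 and -0.01. Single high-fat intervals called lower were 6 of 192 LXR (3.125%), 4 of 179 FXR and SHP (2.23%) and 0 of 100 LRH-1 intervals (background 0.303%). Called higher was 1, in the FXR and SHP list (0.559%, background 0.448%).

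Thrb, the gene of the liver's main thyroid hormone receptor, spans 381 kb of chromosome 14 with 39 chow and 41 high-fat intervals. Its sums were 395 ± 4.21 CPM in flox and 376 ± 19.1 CPM in LKO livers on chow (SD, n = 3) and 384 ± 21.7 and 374 ± 11.5 CPM on the high-fat diet (SD, n = 4), with edgeR adjusted p of 0.814 and 0.912. The start interval had the highest level of any of the 10 genes, 52.5 ± 4.72 and 48.7 ± 6.06 CPM on chow (SD, n = 3) and 50.4 ± 1.66 and 47.6 ± 1.29 CPM on the high-fat diet (SD, n = 4). It and the next interval also lie inside another protein-coding gene. The smallest p was at chr14:17675675-17676175 on chow (-0.64, SE 0.24, adjusted p = 0.656) and at chr14:17724973-17725473 on the high-fat diet (0.94, SE 0.31, adjusted p = 0.197). No locus of the 9 thyroid hormone targets was called. Of their 130 high-fat intervals 5 were called lower (3.85%, background 0.303%) and 1 higher (0.769%, background 0.448%). Thrsp, a lipogenic thyroid-responsive gene, had the smallest p on the high-fat diet (-0.52, SE 0.12, adjusted p = 0.0749).

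No interval over a listed start was called. In each diet 10 of the 13 listed starts, in 8 genes, lay inside an interval. Their log2 fold changes ran from -0.45 to 0.58 on chow and from -0.38 to 0.07 on the high-fat diet, with smallest edgeR adjusted p of 0.731 and 0.364. All 3 called intervals lay inside genes and away from the listed starts, apart from Ahr, whose start is not listed.

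Next, 1 fit of all 14 libraries compared the genotype effect between diets, over intervals whose overlap in the 2 tables was at least 50%. Of 256 matched receptor intervals none differed between diets at an adjusted p under 0.05 (17 had an unadjusted p under 0.05, and DESeq2 called none), against a background of 0.183% of 73945 matched intervals. At gene loci none of the 10 was called, against 0.0392% of 15311. With replicate number within each diet as a block, 2 receptor intervals (background 0.407%) and 1 receptor locus (background 0.751%) were called, all of Nr1i3. This block pairs the high-fat libraries by number as well. The numbers were taken to pair the chow libraries but not the high-fat ones, so these block calls are not read as a result. The difference between diets was not tested with a block on chow only.

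Nr1i3 had the largest difference between diets of the 10 genes. Its 3 matched intervals were all higher in LKO livers on chow and all lower on the high-fat diet, and the locus effect on the high-fat diet minus that on chow was -0.91 (SE 0.26, edgeR adjusted p = 0.353). With the block, which also pairs the high-fat libraries by number, it was -0.91 (SE 0.132, edgeR adjusted p = 0.00215) and was called. So were 2 of the 3 intervals (adjusted p = 0.0264 and 0.0400). These calls rest on high-fat pairs that the correlations did not bear out. No leave-one-out fit without the block brought the locus under 0.05 (adjusted p from 0.0809 to 0.784). Ppara had -0.29 (SE 0.19, adjusted p = 0.830) over 36 matched intervals and Rxra 0.23 (SE 0.21, adjusted p = 0.873) over 97, of which 77 lay lower in both diets and 19 lower on chow only. That Rxra stood out on chow and Ppara on the high-fat diet is not shown as a difference between diets. The remaining 7 genes lay between -0.17 and 0.16.

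**Figure D5:**
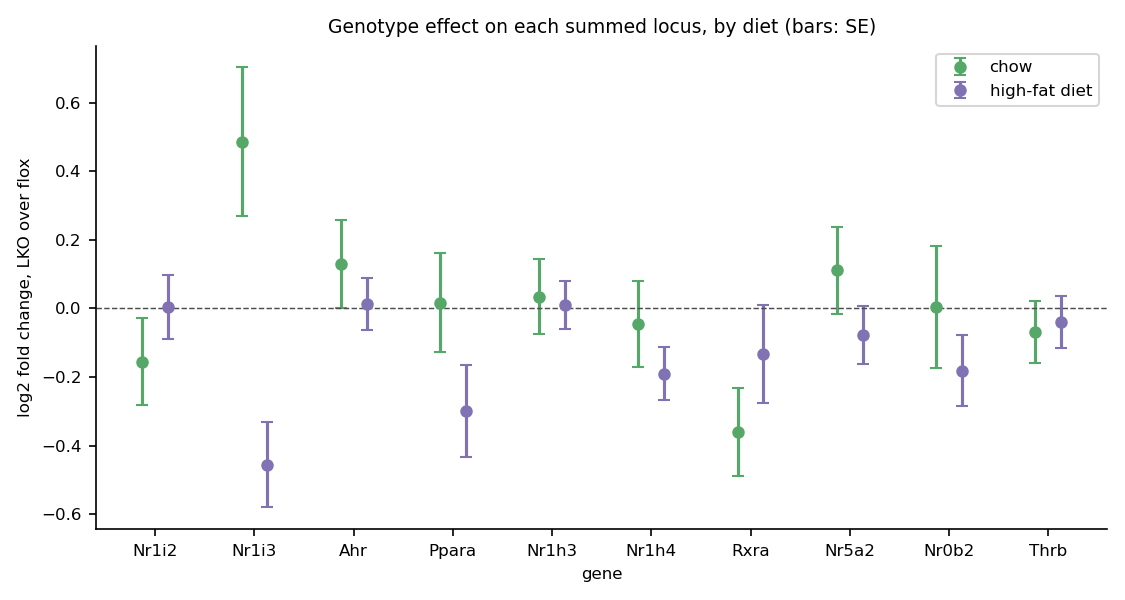
Genotype effect on the summed level of each gene locus (vertical axis, log2 fold change of LKO over flox, bars SE), chow in green and the high-fat diet in purple. Nr1i3 shows opposite signs in the 2 diets, and Rxra on chow and Ppara on the high-fat diet lie about 0.3 below 0.

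Among genes that work with these receptors, 16 coregulators (such as Ncor1 and Ncoa1) all had intervals and no coregulator locus was called in either diet. Of their 238 high-fat intervals 1 was called lower (0.420%, background 0.303%). Of these 16, 12 lay lower on the high-fat diet, with a median of -0.04 and the smallest p in Ncoa3 (-0.26, SE 0.08, edgeR adjusted p = 0.188). Of 36 other nuclear receptor genes 35 had intervals. None was called on chow, and Nr4a1, an immediate-early receptor, was called higher on the high-fat diet, with 283 ± 24.7 CPM in flox and 459 ± 76.2 CPM in LKO livers (SD, n = 4) over 31 intervals, a log2 fold change of 0.70 (SE 0.11, adjusted p = 0.00373). Of the single intervals of these other receptor genes 14 were called higher (2.79%, background 0.448%) and none lower. This list too was chosen with earlier results of these data known.

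Libraries held 15.5 to 35.0 M counts within intervals on chow and 7.59 to 10.4 M on the high-fat diet. The chow libraries numbered 2 of both genotypes were the shallowest and stood apart from the others on the main axis of variation. On the high-fat diet LKO library 1 lay on the flox side and flox library 3 on the LKO side of that axis, and LKO library 2 lay between. Intervals over Matr3 were kept in both genotypes, at 97.4 ± 1.70 CPM in flox and 91.5 ± 3.24 CPM in LKO livers on chow (SD, n = 3) and 89.5 ± 12.8 and 81.3 ± 3.81 CPM on the high-fat diet (SD, n = 4). Which exons are deleted is not stated in the labels, so these values do not check the genotypes.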

How the data were processed

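ATAC-seq was analysed from 14 mouse livers in 4 groups, with each library read as 1 animal because the titles number the females singly. The authors deposited 1 table per diet of whole-number read counts per interval in mm10 coordinates, per the file headers and the labels. All intervals have the same width. Interval names begin with KO or WT, which the labels do not explain. Per the submitters' processing notes the tools included Bowtie2 2.4.2, MACS2 2.2.7.1, Trim Galore 0.6.7, HOMER 4.11 and bedtools, with no role stated. How duplicate and mitochondrial reads were filtered, and whether reads were shifted for the transposase offset, is not given in the sources used. The chow columns carry genotype and number but no sample label, so they entered by group. Library totals run from 15.5 to 35.0 M on chow and 7.59 to 10.4 M on the high-fat diet, and no 2 libraries agreed within counting noise (smallest chi-square per degree of freedom 2.49).

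The 2 tables were fitted separately in edgeR 4.0.16 (R 4.3.3) with TMM scaling, the filterByExpr filter (0 intervals removed), a quasi-likelihood fit of genotype over all intervals, and Benjamini-Hochberg adjustment at 0.05. The same fit was run on counts summed per gene. The genotype effect was compared between diets by an interaction term on 73945 intervals matched at 50% overlap. Diet itself was not tested, since each diet has its own interval set. Genes and starts came from RefSeq tables of GRCm38.p6, with 21900 protein-coding genes. DESeq2 1.42.0, limma 3.58.1, other scalings and filters, 90% overlap, other gene windows, a replicate block and leave-one-out fits were alternatives. Leaving out both chow libraries numbered 2, or high-fat LKO library 1 with flox library 3, was chosen after seeing the data. The scripts were tested on simulated data.

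Replicate numbers were checked by correlating deviations from the group means of same-numbered LKO and flox libraries. On chow these were 0.184, 0.533 and 0.189, all above 0.1, so the numbers were taken to pair the libraries on this evidence from the data alone. The evidence is weak. The value of 0.533 belongs to the libraries numbered 2, which were the shallowest. Flox library 3 correlated more with LKO library 1 (0.278) than with LKO library 3, and flox library 1 had 0.184 with LKO library 3 as well. On the high-fat diet the same-number values ran from -0.0105 to 0.177, and the numbers were not taken as pairs.

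The text gives, for each receptor gene and diet, the intervals with the highest level, with the smallest p, nearest to a start (Ahr: to a gene end) and called. For each gene list it gives counts and the gene with the smallest p, plus the other called genes, and Cyp7a1 on both diets. The most alike genes are the 3 with the highest correlation of log2(CPM + 1) to the receptor locus with the smallest p. Flanking genes and bins of distance along Rxra and Ppara were added after values were seen. The 10 genes, the lists and the markers were chosen with earlier results of these data known.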

Additional observations from a re-analysis of the deposited data

Results flagged for a closer look

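Extreme single libraries were looked for in the high-fat groups of 4 mice, over the summed and named levels of the 10 genes. A library was marked when its gap to the nearest other library, divided by the range of the group, exceeded Dixon's critical value for 4 values. Of 72 groups screened 3 were marked, and chance marks about 1 in 20. All 3 belong to Nr1h3. Its summed level was lowest in 1 flox library, at 71.7 CPM against 75.3 CPM in the next (ratio 0.835). Its start interval, chr2:91194882-91195382, was highest in 1 LKO library, at 36.1 CPM against 29.2 CPM (0.863). The interval chr2:91202124-91202624 was highest in 1 flox library, at 14.6 CPM against 10.8 CPM (0.830). Leaving out any single library called no Nr1h3 interval.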

How the results depend on the processing

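The scaling, filter, overlap and gene window settings not named here kept every count within 1.5 times. Receptor intervals called on chow were 0, but 2 with DESeq2, 1 with the replicate block and 7 with limma-voom, all in Rxra, and 0 to 1 leaving out 1 library. On the high-fat diet 3 were called, 8 with the block, 11 without LKO library 1 and flox library 3, and 1 to 7 leaving out 1 library. Receptor loci called on the high-fat diet were 0, but 2 with the block (Nr1i3 and Ppara), 1 without both libraries and 0 to 1 leaving out 1. For the difference between diets the block called 2 receptor intervals and 1 locus, all Nr1i3.

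Over all features, chow calls were 20 intervals, 544 with DESeq2, 126 with the block, 677 with limma-voom, 333 without both libraries numbered 2, and 0 (without LKO or flox library 1) to 604 (without flox library 2) leaving out 1. Chow loci were 0, 38 with DESeq2, 9 with the block, 7 without both libraries numbered 2 and 0 to 22 leaving out 1. High-fat intervals were 795, 1420 with the block, 482 with a mean of at least 50 counts, 1883 without LKO library 1 and flox library 3 and 304 to 1189 leaving out 1. High-fat loci were 56, 124 with DESeq2, 351 with the block, 321 without both libraries and 17 to 196 leaving out 1. Differences between diets were 135 intervals, 283 with DESeq2, 301 with the block, 397 without the chow libraries numbered 2 and 82 to 370 leaving out 1, and 6 loci, 40 with DESeq2, 115 with the block, 39 without those libraries and 4 to 30 leaving out 1. High-fat replicate numbers do not pair the libraries, and not every library correlated best with its own number. The cause of these moves was not tested.

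Signs of small locus log2 values turned. Without LKO library 1 and flox library 3 the high-fat values were -0.12 for Nr1i2, -0.0142 for Ahr and -0.0129 for Nr1h3, and the Thrb difference between diets was -0.0294 (-0.0244 without the chow libraries numbered 2). With intervals inside the gene only, Ahr had -0.0223 on the high-fat diet and Nr0b2 -0.66 on chow, from 1 interval. Leaving out 1 library gave ranges across 0 on the high-fat diet of -0.0791 to 0.0745 for Nr1i2, -0.0249 to 0.0544 for Ahr, -0.0192 to 0.0388 for Nr1h3 and -0.232 to 0.00374 for Rxra. On chow they were -0.169 to 0.205 for Nr0b2, -0.0322 to 0.122 for Nr1h3, -0.122 to 0.0547 for Nr1h4 and -0.108 to 0.142 for Ppara. Differences between diets ranged from -0.372 to 0.00454 for Nr0b2, -0.160 to 0.0222 for Nr1h4 and -0.0373 to 0.0374 for Thrb. Libraries were shallower on the high-fat diet, where the weakest receptor interval, in Ahr, averaged 3.14 CPM over all libraries, which limits what single intervals can show.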
